A study of Homo sapiens with 9 samples.

Results

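SW1783 cells, an established human glioma line, were transfected with either of 2 forms of the same microRNA, and the transcripts of the 2 groups were compared directly. One form is miR-376a*A, the unedited strand. The other is miR-376a*G, which stands for the edited strand. Each group had 3 arrays, so the comparison rests on 6 of the 9 arrays of the series. The other 3 arrays, from cells given a control miRNA, had no part in the test and are used only for values set beside it. All 9 cultures received 50 nM of a miRNA duplex with Lipofectamine RNAiMAX, and RNA was taken after 24 h. The labels describe the 3 arrays of a group as biological triplicates. All cultures were of 1 cell line, the miRNA was added from outside the cell, and how much of it each culture held was not analysed here.

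A microRNA guides an Argonaute protein to messenger RNAs that pair with its seed, the bases near its 5′ end, and such messages are commonly translated less and degraded faster. ADAR enzymes can convert an adenosine inside the seed of a microRNA precursor to inosine. The cell reads inosine as guanosine, so an edited microRNA can pair with other messages than the unedited one. Editing of the miR-376 cluster is a textbook case of this, and a synthetic strand carrying G at the edited base is a common stand-in for the edited form.

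The sequences below are shown because the groups differ by 1 seed base. They are the 5′ arms of the human miR-376 genes that RefSeq lists under these names (assembly GRCh38.p14, plus strand), with the seed, bases 2 to 8, in capitals. The strand long called miR-376a* is hsa-miR-376a-5p of the gene MIR376A1, at chr14:101040788-101040809. The arms of MIR376A2 (chr14:101040080-101040100), MIR376B (chr14:101040459-101040480) and MIR376C (chr14:101039694-101039714) are set beside it.
hsa-miR-376a-5p: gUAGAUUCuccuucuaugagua
hsa-miR-376a-2-5p: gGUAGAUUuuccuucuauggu
hsa-miR-376b-5p: cGUGGAUAuuccuucuauguuu
hsa-miR-376c-5p: gGUGGAUAuuccuucuauguu
The known edited base of hsa-miR-376a-5p is A3G, counted from 1 at the 5′ end. The labels give neither that position nor the sequences of the duplexes. The seeds of the forms are then as follows.
miR-376a*A seed: UAGAUUC
miR-376a*G seed: UGGAUUC
The first pairs with GAAUCUA in a message and the second with GAAUCCA. Of 2370 mature human miRNAs in the RefSeq table, 1 carried the seed UAGAUUC, which was hsa-miR-376a-5p itself, and 0 carried UGGAUUC. The arms of the other 3 genes had other seeds, and those of MIR376B and MIR376C shared the seed GUGGAUA. Each seed follows from the listed 5′ end. The seed of the MIR376A2 arm, GUAGAUU, is also how hsa-miR-376a-5p begins. Which of the messages below hold a match to either seed was not analysed here.

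The 6 arrays resembled each other closely. Rank correlations over all probe sets were 0.968 to 0.969 within miR-376a*A, 0.967 to 0.970 within miR-376a*G, and 0.963 to 0.970 between the groups. The median deposited signal of an array was 18.8 to 21.0. The first principal component of the tested genes held 52.0% of the variance, with the miR-376a*A arrays at 12.0 to 13.5 and the miR-376a*G arrays at −10.8 to −16.0. The first control array stood apart, with rank correlations of 0.935 to 0.941 to the other 8, so summaries beside control are given with and without it, and single genes by their value on each control array. Of 12 glioma and astrocyte markers, 5 passed the filter on dim genes, among them VIM (2218 to 2640 signal units) and CD44 (2120 to 2382). GFAP (1.30 to 3.11), S100B (1.49 to 2.64), OLIG2 (4.39 to 11.9) and SOX2 (10.3 to 27.9) were low on these 6 arrays and did not pass that filter. All 5 mesenchymal markers passed, with COL1A1 at 2304 to 2861. The leukocyte markers PTPRC (4.96 to 11.9) and CD14 (0.692 to 1.02) did not pass. Of 4 neuron markers 3 passed, with TUBB3 at 1696 to 1910. Of 4 epithelium markers 2 passed, with KRT18 at 1041 to 1365, while EPCAM and CDH1 did not. Of 3 endothelium markers 1 passed, PECAM1 (57.2 to 79.8). Bright markers were thus not confined to the glioma and mesenchymal lists.

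Of 12468 genes tested, 1295 differed between the forms at an adjusted p under 0.05 (limma, Benjamini-Hochberg over all genes), which is 10.4% of them. Of them, 674 were higher (5.41%) and 621 lower (4.98%) with miR-376a*A. Counts of gene list members given below stand beside these shares. All the lists were written with earlier results of these data known, so their shares are no independent evidence. All log2 differences here are miR-376a*A minus miR-376a*G, on a scale of log2(signal + 16), which understates the change of dim genes. In all 1295 genes the 3 arrays of one form lay entirely above the 3 of the other. Over all genes tested, such separation was seen with miR-376a*A above in 14.1% and with miR-376a*A below in 15.5%. Most differences were small. The median size was 0.46 among the genes that were higher and 0.43 among those that were lower, and 89.1% of all genes tested lay within 1.25-fold.

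**Figure D1:**
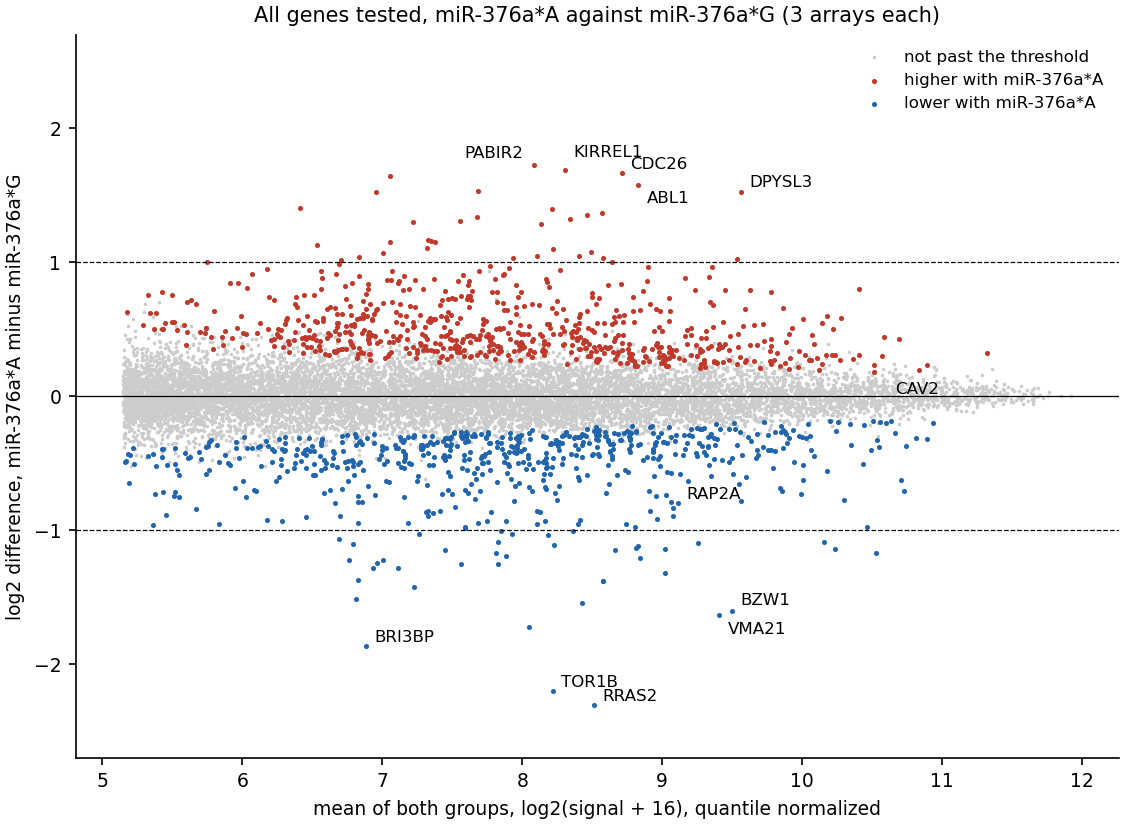
Each point is 1 of 12468 genes, with the mean of both groups on the x axis and the log2 difference, miR-376a*A minus miR-376a*G, on the y axis. Red and blue points passed the threshold (674 higher and 621 lower), the dashed lines mark 2-fold, and RRAS2 and TOR1B lie lowest.

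The genes at least 2-fold apart were 35 higher (0.281% of the genes tested) and 41 lower (0.329%) with miR-376a*A. Between 1.25-fold and 1.5-fold lay 364 higher and 320 lower, and between 1.5-fold and 2-fold lay 159 and 113. At 3-fold or more there were 4 higher and 6 lower, and at 4-fold or more 0 and 2, the latter being RRAS2 and TOR1B. For 89.6% of the genes tested the 95% interval of the difference lay within 1.5-fold in both directions. The count of genes past the threshold was 792 without replicate 2 of miR-376a*A, 319 when the 3 control arrays were fitted with the 6, and 72 when a difference beyond 1.5-fold was itself the hypothesis (limma's treat). Of the 1295 genes, 690 passed in each of the 6 fits that left out 1 array.

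**Figure D2:**
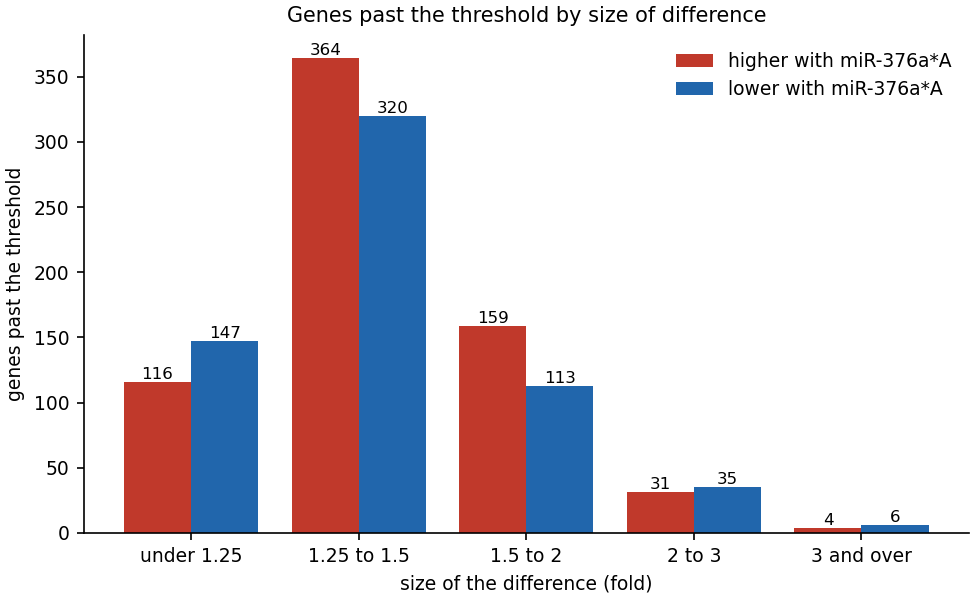
Genes past the threshold (adjusted p under 0.05, limma) are counted by the size of their fold difference between the forms. The largest class in both directions is 1.25-fold to 1.5-fold, with 364 genes higher and 320 lower with miR-376a*A, and 4 and 6 genes lie at 3-fold or more.

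The share past the threshold differed with how bright a gene was, over 4 classes of 3117 genes each. In the dimmest class, with a median signal of 32.1, 3.4% passed. In the next classes, at medians of 99.3, 253 and 759, it was 12.3%, 14.8% and 11.1%. The median standard error went from 0.115 in the dimmest to 0.065 in the brightest class, so a difference of a given size was harder to see in a dim gene.

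Small GTPases gave the largest difference of all. RRAS2, a Ras-family GTPase, read 133, 172 and 142 signal units on the 3 miR-376a*A arrays and 808, 715 and 852 on the 3 miR-376a*G arrays. The groups were far apart, and miR-376a*A was 4.94-fold lower (log2 difference −2.30, SE 0.10, limma adjusted p = 2.75e-06). Its other probe sets gave −2.21 and −1.64. RAP2A, a Rap-family GTPase that the study's publication followed as a target of the unedited form, read 421, 367 and 419 for miR-376a*A, against 680, 731 and 726 for miR-376a*G. Again the groups did not overlap, and it was 1.74-fold lower with miR-376a*A (−0.80, SE 0.08, limma adjusted p = 0.000168). Its other probe sets gave −0.71, past the threshold, and 0.11, not past it. In the list of Ras and Rap GTPases, 17 members were measured, 2 were lower and 1, RAP2C (0.25), was higher, with a list median of −0.05. The share past the threshold was 17.65%, beside 10.4% of all genes tested. The call of RAP2C was lost without any array but replicate 3 of miR-376a*G, with adjusted p up to 0.155 in limma. The relatives HRAS, RRAS and MRAS did not pass, at 0.03, 0.04 and 0.03.

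Of the torsins, ATPases of the endoplasmic reticulum and nuclear envelope, TOR1B alone passed the test. It read 117, 125 and 125 for miR-376a*A, against 619, 568 and 683 for miR-376a*G, without overlap. The difference was −2.20 (SE 0.08, limma adjusted p = 1.87e-06), or 4.60-fold. TOR1A, TOR2A and TOR3A differed by 0.01, 0.09 and 0.08 and did not pass. Of 18 measured torsin and nuclear envelope genes, 22.2% passed, beside 10.4% of all genes tested. Among them LEMD3, an inner nuclear membrane protein, was also lower (−0.41). The lamin B receptor LBR (0.26) and TOR1AIP2 (0.24) were higher. Both of these calls were lost without replicate 1, 2 or 3 of miR-376a*A or replicate 1 or 2 of miR-376a*G, and that of LBR also without replicate 3 of miR-376a*G. The other probe sets of TOR1AIP2 gave values from −0.13 to −0.06.

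Membrane trafficking genes moved in both directions. SEC23B, a coat protein of the COPII vesicles that leave the endoplasmic reticulum, read 206, 228 and 229 for miR-376a*A, against 594, 532 and 680 for miR-376a*G. It was lower with miR-376a*A (−1.38, SE 0.09, limma adjusted p = 3.04e-05), and its other probe sets gave −1.97 and −1.37. The Golgi membrane protein TVP23B was 3.30-fold lower, at 145, 135 and 109 against 445, 475 and 481, though a probe set of this gene may also read its near-identical relative TVP23C. The SNARE protein SEC22B went the other way, at 290, 303 and 264 against 140, 145 and 163 (0.88), but its other probe set gave −0.07. TFG, which organises the sites where COPII vesicles form, was higher at 0.65. In all, 5 of 39 measured genes of endoplasmic reticulum to Golgi transport were higher and 3 lower, with a median of 0.05. That was 20.5% of them, beside 10.4% of all genes tested.

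Acidic organelles and metal transport each held a large difference. VMA21, the assembly factor of the vacuolar proton pump, read 357, 377 and 373 with miR-376a*A against 1143, 1172 and 1179 with miR-376a*G, or 3.10-fold lower (−1.63, SE 0.06, limma adjusted p = 1.87e-06). Another of its probe sets gave 0.13. Among 17 measured genes of the pump, a second, ATP6V1E1, was lower (−0.30), a call lost without replicate 1 or 2 of miR-376a*A or any 1 replicate of miR-376a*G. The share past the threshold in that list was 11.8%, near the 10.4% of all genes tested. Of 22 genes in a list of zinc transporters and metallothioneins, 4 were lower and 1 higher (22.7%, beside 10.4% of all genes tested). The metallothioneins in it did not pass. The count of lower ones was 7 without replicate 3 of miR-376a*G. The importers SLC39A10 (−1.52), SLC39A14 (−0.74) and SLC39A1 (−0.58) were lower with miR-376a*A. SLC39A14 was below control with both forms, at 402, 383 and 370 against 622, 682 and 656, with control at 1179, 982 and 1059. Over the alternative settings tried its difference ran from −0.78 to −0.46. SLC39A10 read 59.2, 47.3 and 45.1 against 160, 186 and 177. SLC30A6, of the family that moves zinc out of the cytosol, was higher, at 195, 203 and 183 against 53.7, 63.5 and 53.5 (1.53). Its other probe sets gave 0.93 and −0.16.

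Growth factors and cytokines were lower or higher gene by gene. FGF2, basic fibroblast growth factor, read 89.4, 84.1 and 55.5 for miR-376a*A, against 213, 228 and 247 for miR-376a*G. The groups were apart (−1.42, SE 0.13, limma adjusted p = 0.000132), and its other probe set gave −0.62. FGF5 was also lower, at 61.6, 68.2 and 75.4 against 204, 154 and 188 (−1.22), with −1.20 and −0.19 from its other probe sets, the latter not past the threshold. EGR1, an early response gene of the pathway, was lower too (−0.63). FOSL1, a partner in the AP-1 transcription factor, was higher (0.64). Of 28 measured FGF and MAPK genes, 2 were higher and 3 lower (17.9%, beside 10.4% of all genes tested). The count of higher ones was 1 without replicate 2 of either form. LIF, a cytokine of the interleukin-6 family, read 196, 195 and 181 against 358, 365 and 421 (−0.93, SE 0.08, limma adjusted p = 7.81e-05), and PTGS2, the inducible cyclooxygenase, differed by −0.43. The cytokines CSF1 (0.83) and IL11 (0.78), from the same list of NF-kappaB response genes, were higher. Over the alternative settings tried CSF1 ran from 0.55 to 0.91. That list had 2 higher and 4 lower of 24 (25%, beside 10.4% of all genes tested).

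Proliferation genes leaned to lower signals with miR-376a*A, by small amounts. MELK, a mitotic kinase, stood out at 362, 276 and 300 against 764, 760 and 868 (−1.32, SE 0.10, limma adjusted p = 5.79e-05). In the G2/M and mitosis list, 7 of 39 measured members were lower, beside 4.98% of all genes tested, and 0 were higher. The median was −0.14, and 7 members were above 0. The 4 largest were ECT2 (−0.40), CENPA (−0.34), ANLN (−0.31) and HMMR (−0.30). The count of lower members was 0 without replicate 2 of miR-376a*A, 1 without its replicate 3, and 2 without replicate 1 or replicate 2 of miR-376a*G. It was 3 without replicate 3 of miR-376a*G, 6 without replicate 1 of miR-376a*A, and 0 with the 3 control arrays in the fit. In the replication and S phase list, 4 of 38 were lower and 2 higher (15.8%, beside 10.4% of all genes tested), with a median of −0.10. The count of lower members was 0 without replicate 2 or 3 of miR-376a*A or replicate 2 of miR-376a*G. It was 2 without replicate 1 or 3 of miR-376a*G, and the count of higher members was 0 without replicate 3 of miR-376a*A and 1 in the fits without replicate 1 or 2 of either form. SKP2, which marks cell cycle inhibitors for destruction, read 237, 107 and 89.7 against 285, 329 and 354, with 1 miR-376a*A array well above the others. Its difference of −1.17 (SE 0.26, limma adjusted p = 0.021) was −1.55 without that array. The call was lost without replicate 2 or 3 of either form, with adjusted p up to 0.0823.

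Among the other genes lower with miR-376a*A, BRI3BP, a membrane protein of the endoplasmic reticulum, read 41.3, 48.1 and 47.9 against 194, 222 and 214 (−1.87, 3.65-fold). BZW1, a regulator of start codon choice in translation, read 387, 421 and 387 against 1210, 1192 and 1279 (−1.60, SE 0.06, limma adjusted p = 1.87e-06). Neither group of either gene overlapped the other. Of 30 measured translation initiation genes, BZW1, EIF2B4 (−0.32) and EIF4B (−0.28) were lower and EIF3A (0.57) was higher. Together they were 13.3% of the list, near the 10.4% of all genes tested. The call of EIF4B was lost without replicate 2 of miR-376a*A. That of EIF2B4 was lost without replicate 2 or 3 of miR-376a*A or any 1 replicate of miR-376a*G. The list's higher count was 2 without replicate 1 of miR-376a*A. PITRM1, a mitochondrial peptidase, was 2.92-fold lower (−1.55). YRDC (−1.38), an enzyme of transfer RNA modification, COMMD2 (−1.37), ARMCX5 (−1.28) and the mitochondrial carrier family member SLC25A43 (−1.28) complete the 15 largest. The other probe set of ARMCX5 gave 0.02 and did not pass, and with its probe sets averaged the difference was −0.63.

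**Figure D3:**
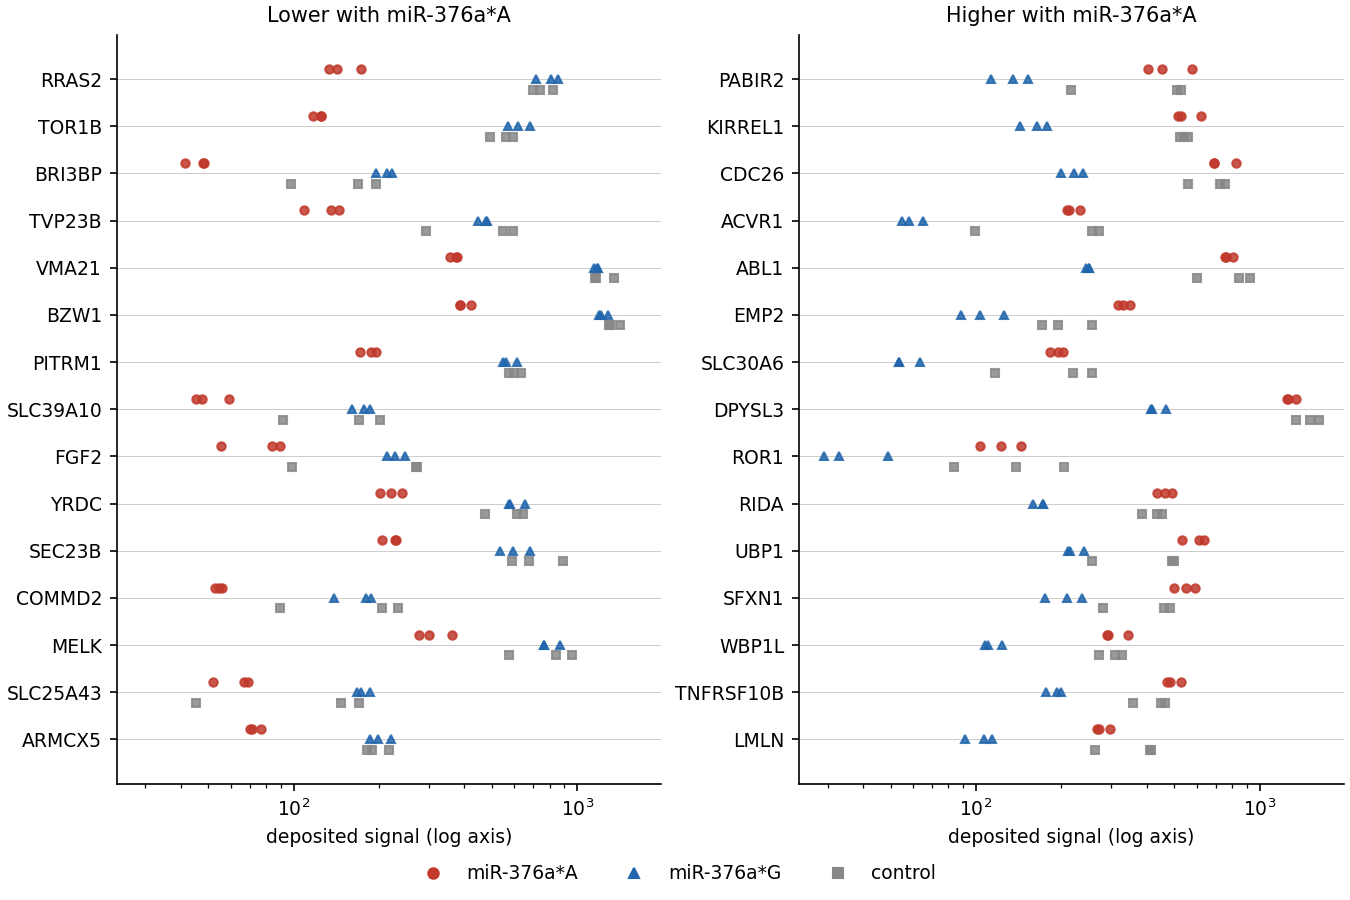
Deposited signals on a log axis are shown for the 15 genes with the largest lower and the 15 with the largest higher difference with miR-376a*A, 1 point per array. Red circles (miR-376a*A) and blue triangles (miR-376a*G) do not overlap in any of the 30 genes, which was a condition of their choice. RRAS2 reads 133 to 172 against 715 to 852.

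In the other direction, kinases and receptors were among the largest. ABL1, a tyrosine kinase that acts on the actin cytoskeleton, read 808, 764 and 752 for miR-376a*A, against 244, 250 and 251 for miR-376a*G. The spread within each form was small beside the gap, and miR-376a*A was 2.99-fold higher (1.58, SE 0.06, limma adjusted p = 1.87e-06). Its relative ABL2 went the other way (−0.67, limma adjusted p = 0.00136). The other probe sets of ABL2 gave −0.87, past the threshold, and −0.18, not past it. ACVR1, a type I receptor for bone morphogenetic proteins, read 232, 213 and 210 against 57.9, 54.8 and 64.9 (1.65, SE 0.09, limma adjusted p = 7.56e-06). INHBA, the subunit of activin A, was higher at 0.74. Of 29 measured TGF-beta and BMP genes, 2 were higher and 3 lower (17.2%, beside 10.4% of all genes tested). The count of lower ones was 0 without replicate 2 of either form or replicate 3 of miR-376a*A, and 1 without replicate 1 or 3 of miR-376a*G. ROR1, a receptor tyrosine kinase that binds a Wnt ligand, read 144, 122 and 103 against 29.0, 32.9 and 48.9 (1.41), while its other probe sets gave 1.30 and −0.07. KIT, the stem cell factor receptor, was lower with miR-376a*A, at 567, 554 and 580 against 748, 818 and 812 (−0.48). Of 16 measured receptor tyrosine kinases 2 were higher and 1 lower (18.75%, beside 10.4% of all genes tested). The count of higher ones was 1 without replicate 1 of either form or replicate 2 of miR-376a*A. TNFRSF10B, a death receptor and p53 target, was higher, at 529, 471 and 484 against 193, 177 and 200 (1.32). Its other probe sets gave 0.05 and 0.19 and did not pass. Among 20 measured p53 targets 3 were higher and 2 lower (25%, beside 10.4% of all genes tested), or 1 lower without replicate 1 of miR-376a*G.

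Regulators of the cytoskeleton and adhesion were more often higher than lower with miR-376a*A. DPYSL3, a microtubule and actin binding protein of growing axons, read 1256, 1251 and 1346 against 415, 418 and 468 (1.53, SE 0.06, limma adjusted p = 1.87e-06). Its difference ran from 1.05 to 1.59 over the alternative settings tried. KIRREL1, a cell adhesion protein of the nephrin family, read 620, 527 and 516 against 143, 164 and 177 (1.69, SE 0.10, limma adjusted p = 1.19e-05). PLXNA1, a semaphorin receptor, was higher by 0.86, though its other probe set, at 0.17, did not pass. In the actin and axon guidance list, 9 of 38 measured members were higher, beside 5.41% of all genes tested, and 2 lower. The median was 0.12 against −0.00015 over all genes tested, and 28 members were above 0. With the control arrays in the fit 4 were higher. Both this list and the next took their members partly from genes already known to differ, so their direction is no independent evidence. The other lists were also written with earlier results known, and the same limit applies to them.

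Of 28 measured integrin and focal adhesion genes, 8 were higher, beside 5.41% of all genes tested, and 0 lower. The median was 0.15, and 20 were above 0. ITGA4, an integrin subunit, read 135, 144 and 116 against 76.4, 80.8 and 77.0 (0.65), and ITGB3 differed by 0.51. The other probe sets of ITGA4 gave 0.13 to 0.17 and that of ITGB3 0.14, and none of them passed. LPP, a focal adhesion scaffold, read 455, 427 and 459 against 294, 305 and 313 (0.55), but another of its probe sets gave −0.15. VCL, vinculin, read 835, 849 and 822 against 592, 644 and 679 (0.37). The count was 6 or 7 when 1 array was left out, and 3 with the control arrays in the fit.

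Matrix genes and the enzymes that cut them included some that were higher and some that were lower. CCN2, a matricellular protein induced by TGF-beta, read 898, 975 and 991 with miR-376a*A against 1634, 1414 and 1784 with miR-376a*G (−0.78, SE 0.09, limma adjusted p = 0.0004). Its relative CCN1 was also lower, at −0.40 for its brightest probe set, and another probe set gave a larger difference in the same direction (limma adjusted p = 8.68e-06). COL4A1, a basement membrane collagen, was higher, at 899, 910 and 907 against 471, 512 and 566 (0.79). ADAM19, a membrane protease, was higher, at 238, 224 and 230 against 107, 99.7 and 82.1 (1.15). ADAM17, which sheds growth factors and tumour necrosis factor from the cell surface, was lower, at 150, 148 and 148 against 224, 242 and 226 (−0.57). The other probe sets of ADAM17 gave −0.47, past the threshold, and −0.23, not past it. TIMP3, an inhibitor of such proteases, was higher (0.55). Of 22 measured proteases and inhibitors, 3 were higher and 3 lower (27.3%, beside 10.4% of all genes tested). The count of lower ones was 1 without any 1 replicate of miR-376a*A or replicate 2 of miR-376a*G. It was 2 without replicate 3 of miR-376a*G. Of 30 collagen and matrix genes, 2 were higher and 2 lower (13.3%, near the 10.4% of all genes tested). The count of higher ones was 1 in 5 of the 6 fits that left out 1 array and 3 without replicate 3 of miR-376a*G.

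Further genes higher with miR-376a*A covered several roles. CDC26, which belongs to the ubiquitin ligase that drives anaphase, read 692, 693 and 825 against 239, 221 and 200 (1.67, SE 0.09, limma adjusted p = 7.56e-06). Of 16 measured genes of that anaphase-promoting complex and its regulators, CDC26 was higher and the inhibitor FBXO5 was lower (−0.47). Together they were 12.5% of the list, near the 10.4% of all genes tested. The call of FBXO5 held only without replicate 1 of miR-376a*G. PABIR2, a relative of an inhibitor of the phosphatase PP2A, gave the largest difference in this direction. It read 580, 453 and 405 against 135, 152 and 113 (1.73, SE 0.14, limma adjusted p = 6.50e-05). The letters of its probe set name mark a possible match to more than 1 transcript family, and its other probe sets gave 1.58 and 0.02. EMP2 (1.53), a tetraspan membrane protein, UBP1 (1.37), a transcription factor, and SFXN1 (1.35), which carries serine into mitochondria, were also higher, and SFXN1 was the 1 gene of 23 mitochondrial carriers and serine enzymes to pass. The other probe sets of SFXN1 gave 0.41, past the threshold, and 0.07, not past it. RIDA, which clears reactive imines, read 435, 464 and 490 against 173, 159 and 172. WBP1L (1.34) and the metalloprotease LMLN (1.31) complete the 15 largest. DICER1, the nuclease that makes mature microRNAs, was higher at 387, 350 and 298 against 232, 265 and 248 (0.46, limma adjusted p = 0.0147), a call lost without replicate 2 of miR-376a*A or replicate 1 of miR-376a*G. It was the 1 gene of 21 in the microRNA machinery to pass.

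In other lists the share past the threshold was below or near the 10.4% of all genes tested. Of 25 interferon response genes, 1 was lower (GBP1, −0.62), a call lost without replicate 1 or 2 of miR-376a*A or replicate 2 or 3 of miR-376a*G, and 4 were lower without replicate 3 of miR-376a*A. Of 24 genes each of the unfolded protein response and of endoplasmic reticulum associated degradation, 1 was higher, TRIB3 (0.65) and EDEM1 (0.29). Of 17 genes of cholesterol synthesis and uptake, 1 was higher (SCD, 0.27). EDEM1 kept its call in 1 of the 6 fits that left out 1 array, without replicate 3 of miR-376a*G, and SCD in 1, without replicate 2 of that form. Of 33 hypoxia and glycolysis genes, 3 were higher (9.09%, near the share over all genes), NDRG1 (0.39), PFKFB4 (0.36) and VEGFA (0.31). The call of PFKFB4 was lost without replicate 2 or 3 of miR-376a*A or replicate 1 of miR-376a*G. The medians of these 5 lists lay between −0.03 and 0.04.

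**Figure D4:**
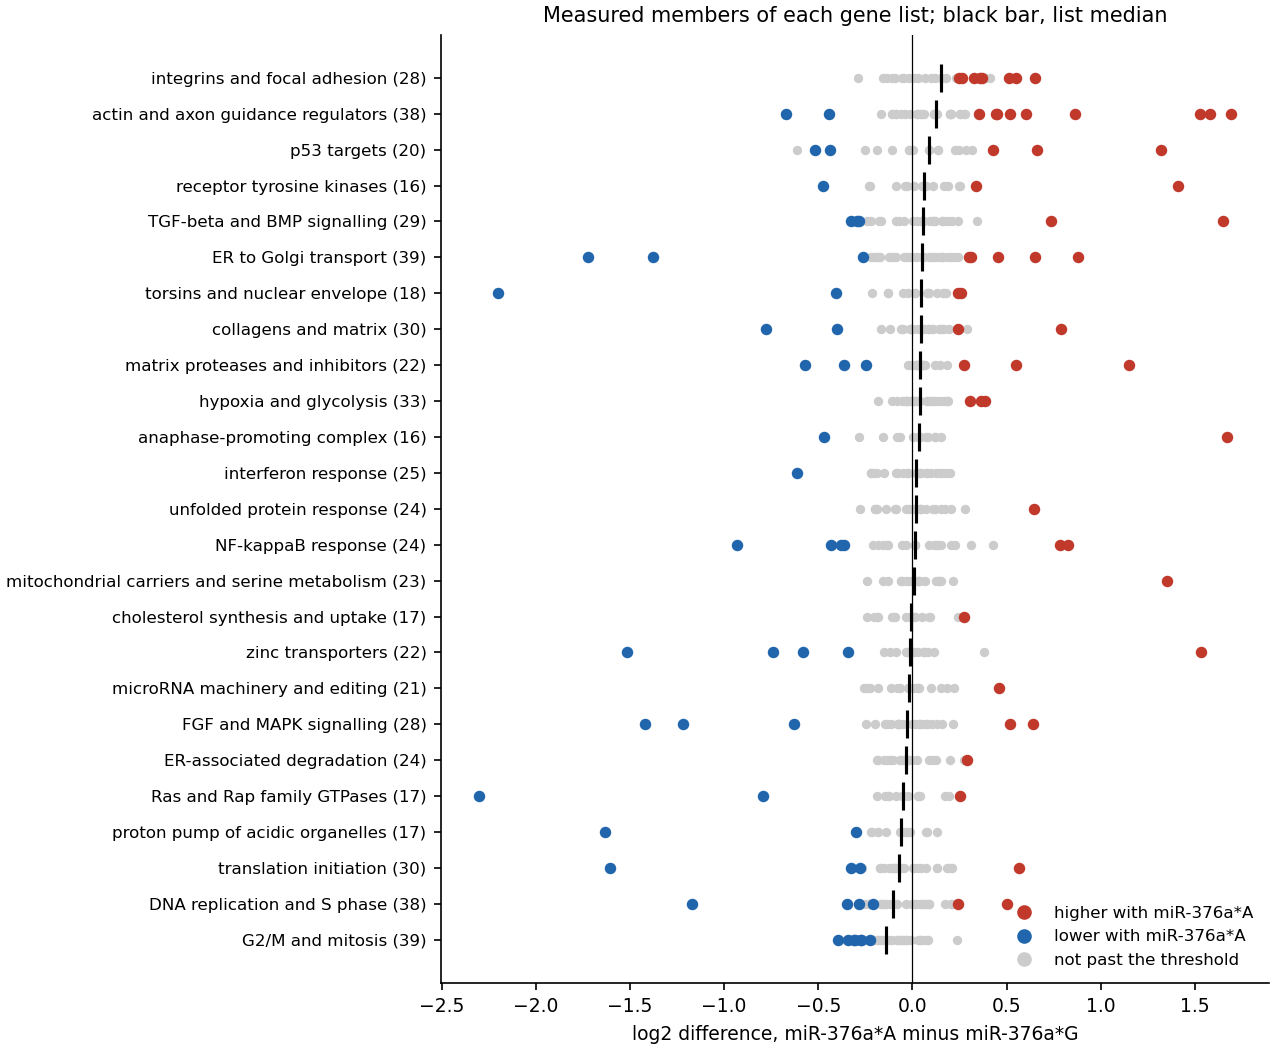
Each row is 1 of 25 gene lists, with its number of measured members in brackets, and each point is the log2 difference of a member, miR-376a*A minus miR-376a*G. Black bars are list medians, which run from −0.14 (G2/M and mitosis) to 0.15 (integrins and focal adhesion), and coloured points passed the threshold.

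Both forms were also set beside the control arrays, for groups of genes and for some single genes. The 2 contrasts share the same 3 control arrays, so they are given side by side as a description with no test. The gap between the forms follows from how the genes were chosen. For the 41 genes at least 2-fold lower with miR-376a*A, the median difference from control was −1.15 for miR-376a*A, against 0.07 for miR-376a*G (−1.22 and 0.03 without the first control array). Of these genes, 37 were at least 1.5-fold below control for miR-376a*A, against 0 for miR-376a*G. With miR-376a*G, 3 of the 41 (FGF5, RASSF3 and SLC25A43) were at least 1.5-fold above control. For SLC25A43 this rested on the first control array, with a log2 difference from control of 0.68 with that array and 0.16 without it. For the 35 genes at least 2-fold higher, the medians were 0.03 for miR-376a*A, against −1.18 for miR-376a*G (−0.01 and −1.19 without that array). There, 33 were at least 1.5-fold below control with miR-376a*G and 0 with miR-376a*A, and 3 were above it with miR-376a*A (ADAM19, EMP2 and SLC16A14). Without the first control array, the counts below control were 40 and 34, and the counts above it 1 and 2.

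RRAS2 shows the first pattern. Its control arrays read 698, 821 and 736, close to the 715 to 852 of miR-376a*G and far above the 133 to 172 of miR-376a*A. ABL1 shows the second, with control arrays at 603, 846 and 929, near the 752 to 808 of miR-376a*A and above the 244 to 251 of miR-376a*G. FGF5 did not follow either pattern, since the control arrays at 73.3 and 70.0 lay within the range of miR-376a*A (61.6 to 75.4). The first control array, at 123, lay between that range and miR-376a*G (154 to 204). LIF did not follow either pattern, with control at 201, 171 and 164, close to the 181 to 196 of miR-376a*A. CCN2 was alike, with control at 1025, 858 and 877 beside 898 to 991 for miR-376a*A and 1414 to 1784 for miR-376a*G. IL11 was above control with both forms. It read 232, 239 and 264 for miR-376a*A, 151, 120 and 141 for miR-376a*G, and 50.0, 68.3 and 62.9 in control. EGR1 and PTGS2 were above control with both forms too, more so with miR-376a*G. In control EGR1 read 59.8, 157 and 139, against 184 to 259 for miR-376a*A and 331 to 345 for miR-376a*G. For PTGS2 these were 118, 259 and 251, against 278 to 325 and 398 to 448. VCL lay below control (1385, 1265 and 1386) with both forms, as did SLC39A14.

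**Figure D5:**
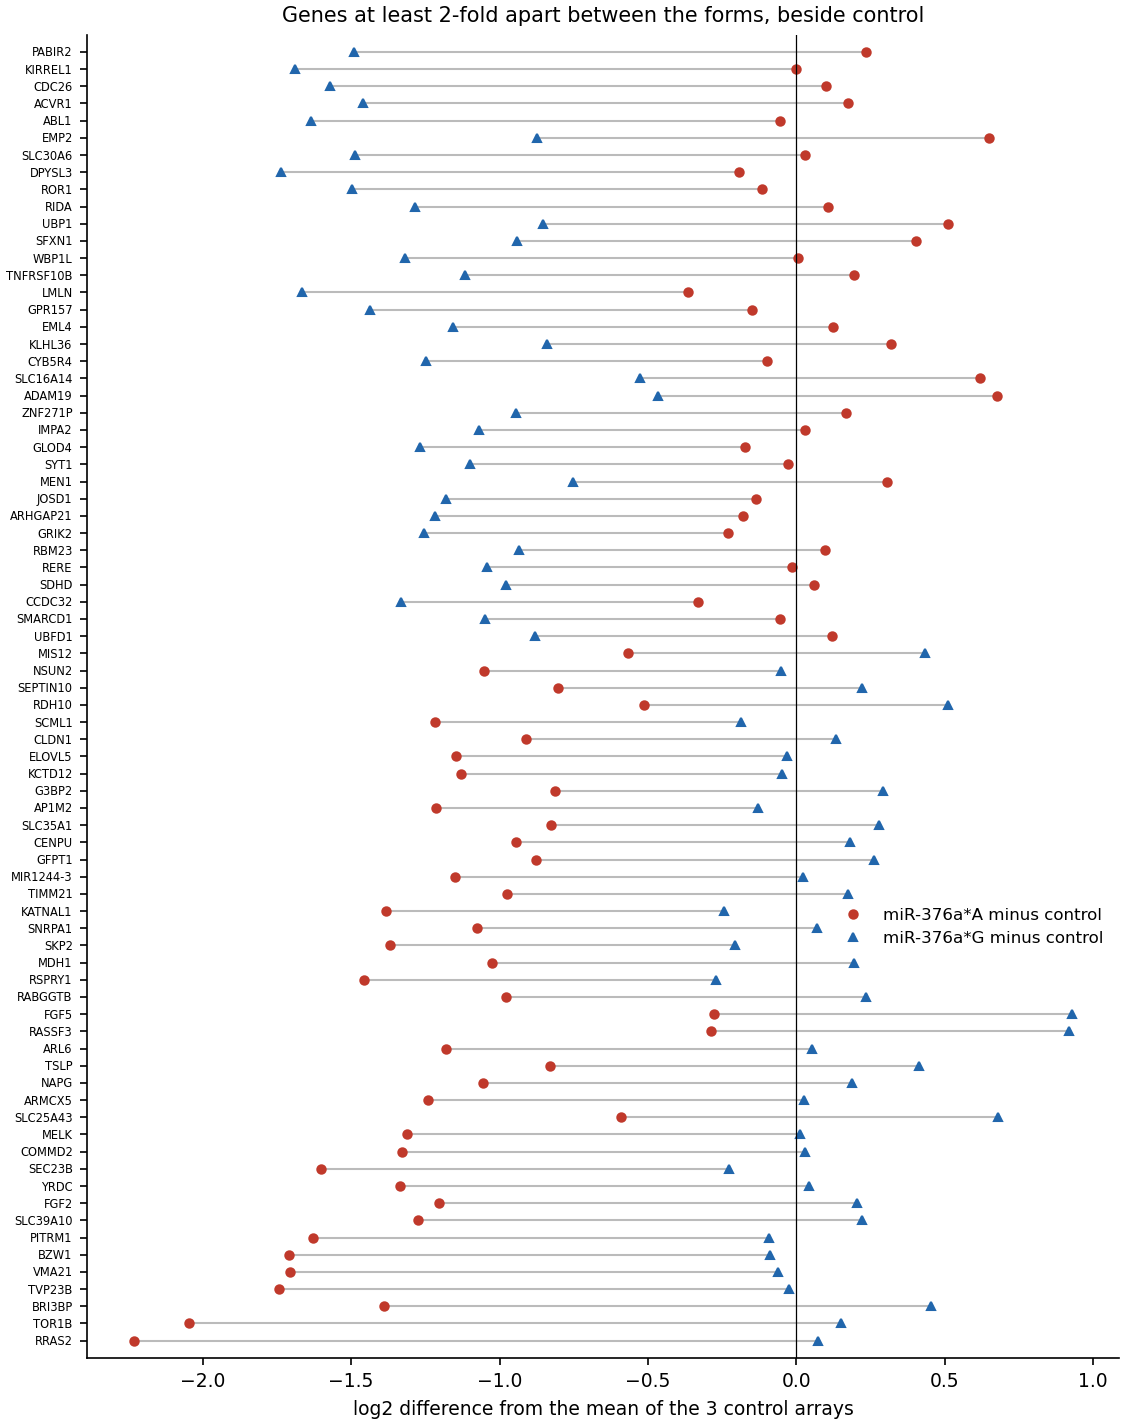
Each row is 1 of the 76 genes at least 2-fold apart between the forms, with its log2 difference from the mean of the 3 control arrays for miR-376a*A (circles) and miR-376a*G (triangles). Genes in the upper rows have circles near 0 and triangles to the left (medians 0.03 and −1.18), and genes in the lower rows the reverse (medians −1.15 and 0.07).

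Over all genes past the threshold, the medians lay on either side of control. These genes were chosen by the difference between the forms, so a gap between the 2 medians follows from the choice. For the 621 genes lower with miR-376a*A, the median difference from control was −0.26 for miR-376a*A, against 0.18 for miR-376a*G (−0.33 and 0.11 without the first control array). Of these, 129 were at least 1.5-fold below control with miR-376a*A and 56 at least 1.5-fold above it with miR-376a*G, and without that array the counts were 175 and 35. For the 674 genes that were higher, the medians were 0.11 and −0.37 (0.06 and −0.40 without it). There, 172 were below control with miR-376a*G and 52 above it with miR-376a*A, or 204 and 35 without it. Over all genes tested, the medians were 0.01 with either form (0.03 without it). Of them, 173 were that far below control with miR-376a*A, against 258 with miR-376a*G, or 249 and 315 without it. Above control by the same margin were 344 and 356, in the same order of forms, or 270 and 264 without that array.

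Some genes were far from control with both forms and differed less between the forms than from control. They were chosen for being high with both, so their distance from control is a description. CAV2, a caveolar protein, read 1654, 1444 and 1575 for miR-376a*A, against 1635, 1442 and 1513 for miR-376a*G, and 540, 478 and 494 in control. The forms overlapped, with a difference of −0.01 and a 95% interval of −0.15 to 0.12 (limma adjusted p = 0.932). NUP37, a nuclear pore protein, read 743, 782 and 729 against 840, 778 and 918, with control at 192, 204 and 191 (−0.18, interval −0.34 to −0.02, limma adjusted p = 0.168). MTMR6, a phosphoinositide phosphatase, read 526, 437 and 423 against 569, 588 and 559, with control at 38.5, 138 and 123 (−0.29, interval −0.49 to −0.10, limma adjusted p = 0.0646). None of the 3 passed the threshold. On the normalized scale, however, the arrays of NUP37 and of MTMR6 did not overlap between the forms, with miR-376a*A lower. MTMR6 passed in 1 of the 6 fits that left out 1 array.

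Other probe sets of the same genes were a further check, though they are read from the same RNA and array. Of the 1295 genes past the threshold, 758 had other probe sets above the filter, 1333 in all. Of those, 1153 had the same sign, 387 had it and passed themselves, and 4 passed with the opposite sign (in CDH11, EXD2, PRRX1 and SPRED1). For the genes at least 2-fold apart, 65 of 75 other probe sets had the same sign, 45 of them passed, and 0 passed with the opposite sign. Of those 76 genes, 4 were represented by a probe set whose name marks a possible match to several transcript families.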

How the data were processed

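Total RNA from SW1783 cells was labelled with Biotin-ULS and hybridised to Affymetrix expression arrays, per the labels' protocols, and the tool listed is GCOS 1.4.0.036, per the submitters' processing notes. The authors deposited 1 linear signal intensity per array for each of 54675 probe sets. The mean of each array after trimming 2% at each end was 100.01 to 100.013, so a common scaling preceded deposit, and a change shared by most transcripts would not be seen. How probes were summarised and background removed is not given in the sources used here. The number of arrays, 3 per form, limits the precision.

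Intensities of the 6 arrays were turned into log2(signal + 16) and quantile normalized over those 6. Gene names came from the platform annotation, in which 41097 had 1 gene symbol, 1801 several and 11777 none. Of those with 1 symbol, 41043 were found in RefSeq's table for GRCh38.p14, and 0 symbols changed. Probe sets with a mean below the 50th percentile (log2 level 5.15) were dropped. The brightest probe set left stood for its gene, which gave 12468 genes, 6019 of them with more than 1. The forms were compared by limma 3.58.1 under R 4.3.3, using lmFit and eBayes (trend = TRUE), with p-values adjusted by the Benjamini-Hochberg method and a threshold of 0.05. The script was tested on simulated data. Figures were drawn with matplotlib 3.10.9.

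The members and gene lists were chosen with earlier results of these data known, and the lists are described by counts and medians only. The genes named are the 15 largest differences in each direction, up to 4 genes past the threshold per list by size, the genes high with both forms and RAP2A. The relatives of RRAS2, TOR1B and ABL1, RASSF3, SLC16A14 and the genes with disagreeing probe sets were otherwise named to complete a count or a family. One further gene known of the study and 1 gene list are not reported here. Same-numbered arrays of the forms did not deviate together (correlations −0.0870, −0.0985 and −0.0219, against a limit of 0.1), so numbers were not taken as pairs. In tests of a single gene over arrays, an exact permutation of 3 against 3 cannot give a p below 0.1. The alternatives tried, 18 settings in all, have their counts in the closing section.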

Additional observations from a re-analysis of the deposited data

How the results depend on the processing

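Of 1295 genes past the threshold (674 higher, 621 lower with miR-376a*A), 0 had the opposite sign under any of 17 of the 18 alternatives, and 4 had it when probe sets of a gene were averaged. The counts were 319 (169 and 150) with all 9 arrays in the fit, 72 (31 and 41) when a change over 1.5-fold was tested, and 792 to 1063 (446 to 610 and 346 to 486) with 1 array left out, lowest without replicate 2 of miR-376a*A. A replicate block gave 1005 genes (551 and 454), 965 of them the same genes, though the numbers were not found to pair the arrays. The genes at least 2-fold apart, 35 higher and 41 lower, were 55 and 64 with a pseudocount of 1, 15 and 22 with 64, and 22 and 25 with averaged probe sets. Other scaling gave 1159 (array medians equal) or 1266 (none) genes past the threshold, no filter 973 of 19775, and a filter at the 75th percentile 1137 of 7897. CAV2 turned from −0.01 to 0.0317 with array medians equal, to 0.0256 with no further scaling, to 0.0704 with averaged probe sets, and ran from −0.0745 to 0.0226 with 1 array left out, above 0 without replicate 2 or 3 of miR-376a*A or replicate 1 of miR-376a*G. NUP37 turned to 0.0160 with averaged probe sets. The causes were not tested. Of 30 genes with the largest differences, SLC25A43 lost its call with all 9 arrays (limma adjusted p = 0.121), where control replicate 1 read 45.4 and the other controls 170 and 147, and calls lost when testing beyond 1.5-fold are counted above. Of 92 genes that the naming rule chose and that passed, 66 did so in each fit with 1 array left out. Array weights gave 1636 genes, no intensity trend 1182, pseudocounts of 1 and 64 gave 1281 and 1302, and averaged probe sets 1384. In the dimmest class of genes 3.4% passed.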

Other observations

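Some probe sets with no gene name in the table used here also differed between the forms. Of 3346 such probe sets above the filter, 119 passed the threshold (3.56%), 73 higher and 46 lower with miR-376a*A, beside 7.9% of the 22899 probe sets with 1 gene symbol. Of 1093 with several symbols, 73 passed (6.68%), 44 higher and 29 lower.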
